A study of Mus musculus with 4 samples.

Results

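The genes described here were 40 mouse genes of ribosome biogenesis and the nucleolus, taken from a fixed list of names. All 40 were found in each of the 4 count tables, out of 26687 gene names in all. The tables were 10x Single Cell 3' v2 counts of unique molecular identifiers (UMIs, each standing for 1 captured RNA molecule) in long-term hematopoietic stem cells (LT-HSCs) sorted from the bone marrow of C57BL/6 mice 8 to 11 weeks old. There was 1 library each of NPMc+ cells, which carry a nucleophosmin that is held in the cytoplasm, of Flt3-ITD cells, whose receptor tyrosine kinase Flt3 has an internal tandem duplication, of NPMc+/Flt3-ITD cells with both alleles, and of Mx cells, labelled MxCRE after an interferon-inducible Cre driver and named by the study as its control. The labels do not say whether the mutant mice also carry MxCRE, how the alleles were induced or how many mice went into a library. With 1 library per genotype no difference between genotypes was tested, and every interval below is a 95% interval that covers counting error only.

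Ribosome assembly begins in the nucleolus, where RNA polymerase I transcribes the ribosomal RNA precursor. Small nucleolar ribonucleoprotein particles (snoRNPs) modify that precursor, the box C/D kind by methylation and the box H/ACA kind by pseudouridylation, and separate sets of assembly factors build the small and the large subunit around it. Nucleophosmin is an abundant nucleolar protein that shuttles between nucleus and cytoplasm, and many genes of the pathway are classical targets of MYC. The list also holds Srm and Odc1, enzymes of polyamine synthesis that follow the same growth programme in many cells.

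A promoter window in RefSeq (build GRCm38.p6, 250 bases before to 50 after the gene start) was at hand for 34 of the 40 genes. The motif CCGGAA, the core of ETS-type sites, was searched on both strands and was present in 15 of the 34 windows (44.1%), against 36.7% of the 5516 genes with a window and at least 20 CPM (UMIs per 1000000 UMIs of the library) in any library, and 16.7% of all 27025 genes with a window. It was more frequent in other genes of ribosome biogenesis, at 61.2% of 116 windows without the snoRNA hosts, and in ribosomal protein genes, at 53.0% of 66. The MYC E-box CACGTG, a palindrome, was present in 6 of 34 windows (17.6%), against 13.1% of the genes at 20 CPM, 8.09% of all genes, 20.7% of the other genes of ribosome biogenesis and 9.09% of ribosomal protein genes. The first group of windows, 50 bases before to 20 after the start, shows 3 members with CCGGAA in capitals next to the start: Nhp2 and Nop2, which were higher in NPMc+ cells, and Npm3, the closest relative of nucleophosmin on the list.
Nhp2 (chr11:51619723-51619792, plus strand): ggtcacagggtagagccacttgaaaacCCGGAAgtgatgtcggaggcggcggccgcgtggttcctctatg
Npm3 (chr19:45749546-45749615, minus strand): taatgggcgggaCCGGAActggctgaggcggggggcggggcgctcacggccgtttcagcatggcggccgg
Nop2 (chr6:125131833-125131902, plus strand): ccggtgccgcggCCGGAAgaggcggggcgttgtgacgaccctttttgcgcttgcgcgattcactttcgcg

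The second group shows how the members differ at their start from the genes of the ribosome itself. A run of at least 7 C or T on the transcribed strand, between 10 bases before and 15 after the start, was present in 33 of 66 ribosomal protein genes with a window (50%) and in 6 of 14 snoRNA host genes (42.9%), both classes known for starts in pyrimidine tracts. It was present in 1 of 34 members (2.94%), which was Odc1, against 18.3% of the genes at 20 CPM and 17.5% of all genes. The count depends on these edges. Nop2 and Nhp2, printed above, each hold a run of at least 7 C or T, in lower case, that lies partly outside them. In this second group capitals mark every run of at least 7 C or T in the printed stretch. Odc1 and Nop10 are the members that stood apart most in single genotypes, Snhg8 is a snoRNA host gene, and Rpl39 was, among ribosomal protein genes with such a run and a single window, the one with the lowest ratio of NPMc+/Flt3-ITD to Mx, picked after its values were seen. A match to these letters is a description of the sequence and not a mapped site.
Odc1 (chr12:17544823-17544892, plus strand): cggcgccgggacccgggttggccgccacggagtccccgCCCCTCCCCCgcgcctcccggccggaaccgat
Nop10 (chr2:112261876-112261945, plus strand): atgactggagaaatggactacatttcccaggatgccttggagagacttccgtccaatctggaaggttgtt
Snhg8 (chr3:123508317-123508386, minus strand): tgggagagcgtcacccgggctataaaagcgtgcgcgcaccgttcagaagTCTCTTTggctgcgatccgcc
Rpl39 (chrX:37085203-37085272, minus strand): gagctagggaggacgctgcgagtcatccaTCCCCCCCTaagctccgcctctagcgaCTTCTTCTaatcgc

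After filtering, 10608 cells were kept, between 2375 and 3321 per library, with 20943905 to 26965367 UMIs per library. The members took 132494 UMIs in NPMc+, 100184 in Flt3-ITD, 147010 in NPMc+/Flt3-ITD and 96773 in Mx cells. Markers of the sorted cells were present in every library, and the summed level of 10 HSC markers was 752 CPM in NPMc+, 428 CPM in Flt3-ITD and 346 CPM in NPMc+/Flt3-ITD, against 865 CPM in Mx cells. The NPMc+/Flt3-ITD library stood apart in several ways. Ribosomal protein genes took 21.2% of its UMIs, against 29.8% in NPMc+, 29.4% in Flt3-ITD and 31.4% in Mx cells. Its 13 T or NK cell markers summed to 1514 CPM, against 474, 361 and 214 CPM in the NPMc+, Flt3-ITD and Mx libraries, and the 7 of them at 20 CPM or more were all at least 1.5-fold above Mx. Its 7 mast cell or basophil markers summed to 659 CPM, against 114, 52.3 and 19.7 CPM in the NPMc+, Flt3-ITD and Mx libraries, and its 8 markers of multipotent or lymphoid-primed progenitors to 1833 CPM, against 452, 767 and 512 CPM. The NPMc+ library held the most megakaryocyte marker UMIs, with 10 markers at 1160 CPM, against 467 CPM in Mx cells, and 7 of 8 at 20 CPM or more at least 1.5-fold above Mx. Of all genes at 20 CPM or more, 14.1% in NPMc+/Flt3-ITD and 4.37% in NPMc+ cells were as far above Mx. No marker of these 4 lists was at 0 in every library, and the part of megakaryocyte and progenitor cells in the members' levels was not tested. Of the NPMc+/Flt3-ITD cells that could be sexed from Xist and Y-linked UMIs, 93.1% were male, against 70.0% in NPMc+, 56.1% in Flt3-ITD and 67.6% in Mx cells.

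The members together were somewhat higher in both genotypes with NPMc+ and near the Mx level in Flt3-ITD cells. Their summed level was 5285 CPM in NPMc+, 4557 CPM in Flt3-ITD and 5452 CPM in NPMc+/Flt3-ITD cells, against 4621 CPM in Mx cells. Relative to Mx this was 1.14-fold in NPMc+ (1.13 to 1.15) and 1.18-fold in NPMc+/Flt3-ITD cells (1.17 to 1.19). In Flt3-ITD cells it was 0.986-fold (0.978 to 0.995), a direction that turned under scaling with the trimmed mean of M-values (TMM), where it was 1.09-fold. NPMc+/Flt3-ITD cells were 1.20-fold above Flt3-ITD cells (1.19 to 1.21). They were 1.03-fold above NPMc+ cells (1.02 to 1.04), and that direction turned under TMM scaling (0.917-fold) and with mitochondrial and ribosomal protein genes left out of the total (0.922-fold). With those genes left out of the total, the difference of NPMc+/Flt3-ITD from Mx shrank to 1.03-fold, while that of NPMc+ from Mx was 1.12-fold. Without cells that held at least 3 UMIs of a list of another lineage (B, T or NK, erythroid, granulocyte, mast or basophil, or monocyte, macrophage or dendritic), the sum was 1.14-fold the Mx level in NPMc+ and 1.21-fold in NPMc+/Flt3-ITD cells.

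Because all genes shift with the total, the members were read against the median of all genes with at least 20 CPM in either library. In NPMc+ cells the median log2 ratio to Mx of the 36 members at that level was 0.23, against -0.01 over 6588 genes. In Flt3-ITD cells it was -0.04 over 35 members and -0.06 over 6546 genes, and in NPMc+/Flt3-ITD cells 0.36 over 36 members and 0.21 over 6938 genes. Against NPMc+ cells, the median log2 ratio of NPMc+/Flt3-ITD cells was 0.09 for the members and 0.22 for all genes, a difference of -0.14 between the members and all genes. Against Flt3-ITD cells it was 0.39 for the members and 0.28 for all genes. TMM scaling moved every log2 ratio to Mx by 0.14 in NPMc+ cells, by 0.14 in Flt3-ITD cells and by -0.03 in NPMc+/Flt3-ITD cells, without changing these differences between members and all genes. It turned the direction of 10 of the 40 members in NPMc+ cells, 9 in Flt3-ITD cells and 0 in NPMc+/Flt3-ITD cells.

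Few members passed a fold of 1.5. In NPMc+ cells 5 of 36 members were at least 1.5-fold above Mx (13.9%), against 4.37% of all genes, and 0 were as far below, against 8.91% of all genes. In Flt3-ITD cells 1 of 35 was above (2.86%), against 4.41% of all genes, and 0 below, against 6.40%. In NPMc+/Flt3-ITD cells 4 of 36 were above (11.1%) and 2 below (5.56%), against 14.1% and 9.84% of all genes. The counts in Flt3-ITD and NPMc+/Flt3-ITD cells were near the shares of all genes. One of the 5 in NPMc+ cells, Bysl, reached 20 CPM through the NPMc+ library alone, so that it entered the count by being high there. The count above Mx in NPMc+ cells was 10 under TMM scaling, which moved the log2 ratio of every gene there by 0.14. The count in NPMc+/Flt3-ITD cells was 2 with mitochondrial and ribosomal protein genes left out of the total. The shares of all genes given here are those in CPM, and none stands beside these counts under other settings. Smaller ratios were more frequent. The counting interval lay above 1 for 24 and below 1 for 3 of the 36 members in NPMc+ cells. These counts were 11 and 13 of 35 in Flt3-ITD cells, and 30 and 4 of 36 in NPMc+/Flt3-ITD cells. Without regard to the interval, 27 of 36 members were above 1 in NPMc+ cells, against 49.3% of all genes. In Flt3-ITD cells 16 of 35 were, against 39.9%. In NPMc+/Flt3-ITD cells 30 of 36 were, against 68.7%, so most genes lay above Mx there. The other 4 genes, Polr1a, Utp20, Heatr1 and Rrp12, stayed under 20 CPM in every library, and Bysl did so in Flt3-ITD and Mx cells.

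**Figure D1:**
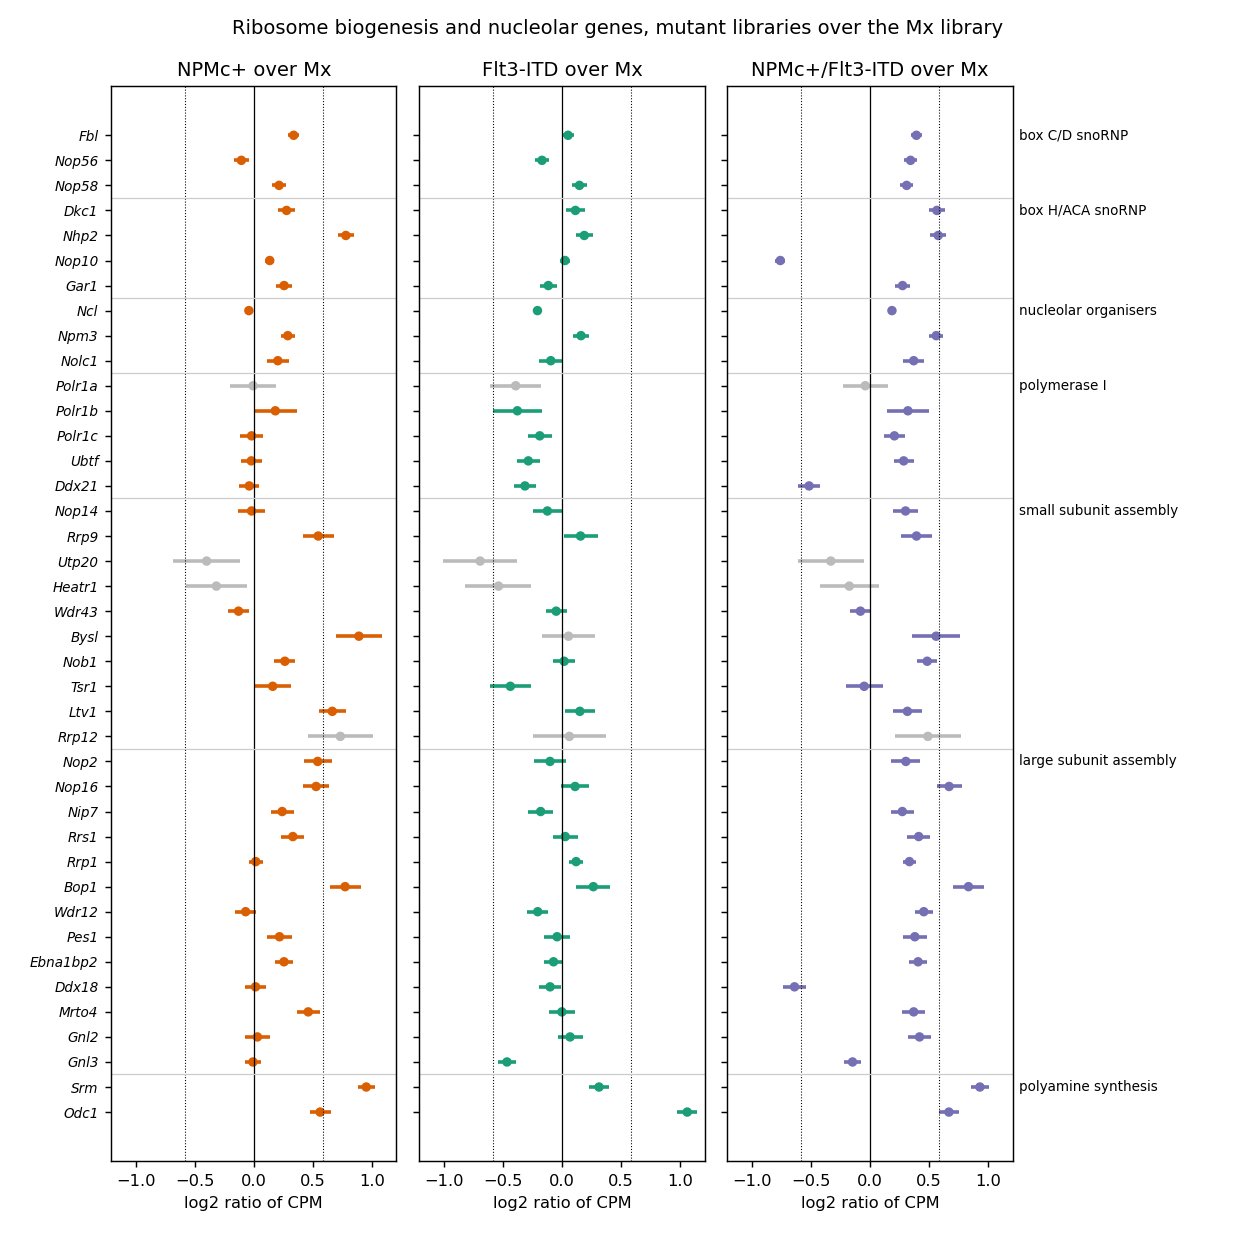
The log2 ratio of CPM to Mx (x axis) of each of the 40 genes, ordered by role (rows), in NPMc+, Flt3-ITD and NPMc+/Flt3-ITD cells (panels), with 95% counting intervals as bars, genes under 20 CPM in both libraries in grey and dotted lines at a fold of 1.5. Srm lies to the right in every panel, Odc1 is farthest right in Flt3-ITD, and Nop10 and Ddx18 lie left of the dotted line in NPMc+/Flt3-ITD cells alone.

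Both polyamine genes were above Mx in all 3 mutant genotypes, with Srm the higher ratio in both genotypes with NPMc+ and Odc1 in Flt3-ITD cells. Srm (spermidine synthase, chr4:148591503-148594993) was measured at 197 CPM in NPMc+, 127 CPM in Flt3-ITD and 194 CPM in NPMc+/Flt3-ITD cells, against 102 CPM in Mx cells. It was 1.93-fold above Mx in NPMc+ (1.84 to 2.03), 1.24-fold in Flt3-ITD (1.17 to 1.32) and 1.90-fold in NPMc+/Flt3-ITD cells (1.81 to 2.0). In CPM both libraries with NPMc+ were thus close to one level, and Flt3-ITD lay between them and Mx. That closeness holds for CPM only. TMM scaling moved every log2 ratio of NPMc+/Flt3-ITD to NPMc+ by -0.17. Leaving mitochondrial and ribosomal protein genes out of the total moved it by -0.16. Odc1 (ornithine decarboxylase, the first enzyme of the pathway, chr12:17544794-17551505) was measured at 111 CPM in NPMc+, 157 CPM in Flt3-ITD and 119 CPM in NPMc+/Flt3-ITD cells, against 75.2 CPM in Mx cells. Its ratio to Mx was highest in Flt3-ITD cells at 2.08-fold (1.96 to 2.21), and was 1.48-fold in NPMc+ (1.39 to 1.57) and 1.59-fold in NPMc+/Flt3-ITD cells (1.49 to 1.69). In NPMc+/Flt3-ITD cells Odc1 was therefore 0.762-fold the Flt3-ITD level (0.726 to 0.800), below and not above the single mutant. The 2 genes summed to 1.74-fold the Mx level in NPMc+, 1.60-fold in Flt3-ITD and 1.77-fold in NPMc+/Flt3-ITD cells.

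The other 11 genes of polyamine metabolism and of hypusine, the polyamine-derived residue of the translation factor eIF5A, moved less. None of the 10 at 20 CPM or more passed a fold of 1.5 in NPMc+ or in Flt3-ITD cells. Of all genes, 4.37% were as far above Mx and 8.91% below in NPMc+ cells, and 4.41% and 6.40% in Flt3-ITD cells. The share of all genes above Mx in NPMc+/Flt3-ITD cells was 14.1%. In NPMc+/Flt3-ITD cells 2 of 11 did, both above Mx, and both oxidise polyamines: Smox (spermine oxidase) was 1.79-fold above Mx (1.59 to 2.01) and Paox 1.57-fold (1.38 to 1.79). Eif5a itself was 1.22-fold above Mx in NPMc+ cells (1.20 to 1.24).

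**Figure D2:**
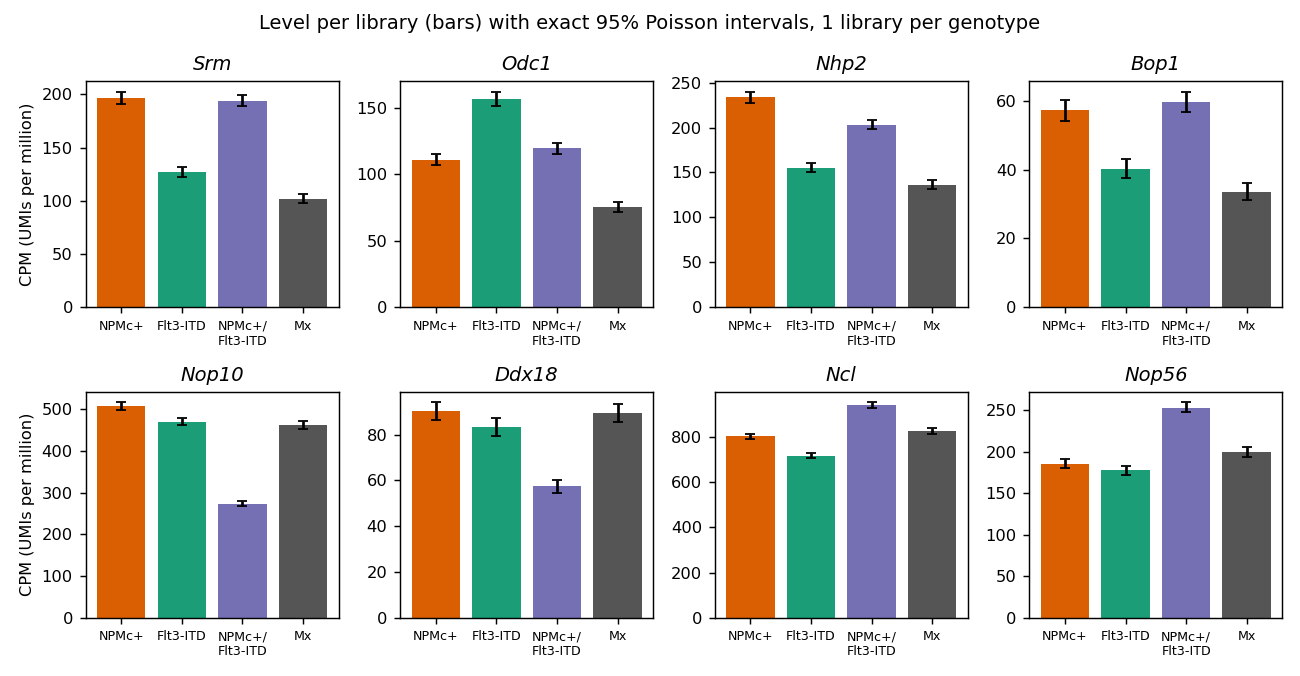
The level in CPM (y axis, from 0) of 8 of the genes in NPMc+, Flt3-ITD, NPMc+/Flt3-ITD and Mx cells (bars, left to right), with exact 95% Poisson intervals of the UMI counts and 1 library per bar. Srm and Bop1 have their tall bars in both genotypes with NPMc+, Odc1 has its tallest in Flt3-ITD at 157 CPM, and Nop10 and Ddx18 have their short bar in NPMc+/Flt3-ITD at 273 and 57.4 CPM.

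The box C/D core proteins summed to 1.14-fold the Mx level in NPMc+ cells (1.12 to 1.16) and 1.28-fold in NPMc+/Flt3-ITD cells (1.25 to 1.31). In Flt3-ITD cells the sum was 1.01-fold (0.991 to 1.04). Fbl (fibrillarin, the methyltransferase of the particle) was measured at 390.5 CPM in NPMc+, 320.4 CPM in Flt3-ITD and 406 CPM in NPMc+/Flt3-ITD cells, against 309 CPM in Mx cells. Nop58 had 220.4, 211 and 236 CPM in NPMc+, Flt3-ITD and NPMc+/Flt3-ITD cells, against 190.0 CPM in Mx cells. Nop56, the partner of Nop58 in the particle, had another order, with 186, 178 and 253 CPM in NPMc+, Flt3-ITD and NPMc+/Flt3-ITD cells, against 199.8 CPM in Mx cells. It was 0.930-fold the Mx level in NPMc+ (0.891 to 0.969), a direction that turned under TMM scaling, and 1.27-fold in NPMc+/Flt3-ITD cells (1.22 to 1.32). Nop56 overlaps Idh3b on the opposite strand, which was at 134 CPM in NPMc+, 130.2 CPM in Flt3-ITD and 141 CPM in NPMc+/Flt3-ITD cells, against 132 CPM in Mx cells, and the sources used here do not say whether counting used the strand.

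The box H/ACA proteins did not move as a unit. Dkc1 (dyskerin, the pseudouridine synthase) was measured at 142 CPM in NPMc+, 127 CPM in Flt3-ITD and 173 CPM in NPMc+/Flt3-ITD cells, against 117 CPM in Mx cells. Dkc1 overlaps Mpp1 on the opposite strand, which was at 67.0 CPM in NPMc+/Flt3-ITD and 37.2 CPM in Mx cells. Mpp1 was at 36.7 CPM in NPMc+ and 39.0 CPM in Flt3-ITD cells. Gar1 had 170.0 CPM in NPMc+, 131 CPM in Flt3-ITD and 172 CPM in NPMc+/Flt3-ITD cells, against 142 CPM in Mx cells. Nhp2 (chr11:51619735-51623714) had 234 CPM in NPMc+, 155 CPM in Flt3-ITD and 203 CPM in NPMc+/Flt3-ITD cells, against 136 CPM in Mx cells. This was 1.72-fold above Mx in NPMc+ (1.64 to 1.79), 1.14-fold in Flt3-ITD (1.08 to 1.20) and 1.49-fold in NPMc+/Flt3-ITD cells (1.43 to 1.56), so Nhp2 was higher in all 3 and most in NPMc+ cells. Nhp2 overlaps Rmnd5b on the opposite strand, which was at 34.6 CPM in NPMc+ and 28.1 CPM in Mx cells.

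Nop10, the smallest subunit of the same particle (chr2:112261926-112263269), went the other way in the double mutant. It was measured at 507 CPM in NPMc+, 470.0 CPM in Flt3-ITD and 273 CPM in NPMc+/Flt3-ITD cells, against 462 CPM in Mx cells. The NPMc+/Flt3-ITD library was far below the other 3, at 0.591-fold the Mx level (0.573 to 0.609), 0.538-fold the NPMc+ level (0.523 to 0.554) and 0.580-fold the Flt3-ITD level (0.563 to 0.598). With Nop10 in the sum, the box H/ACA proteins were 0.958-fold the Mx level in NPMc+/Flt3-ITD cells (0.939 to 0.977), whereas 3 of the 4 genes were above Mx.

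Among nucleolar organisers and chaperones, Ncl (nucleolin, chr1:86344719-86359400) was measured at 804 CPM in NPMc+, 717 CPM in Flt3-ITD and 941 CPM in NPMc+/Flt3-ITD cells, against 827 CPM in Mx cells. Its ratio to Mx was 0.972-fold in NPMc+ (0.952 to 0.991), which turned under TMM scaling, 0.866-fold in Flt3-ITD (0.848 to 0.885) and 1.14-fold in NPMc+/Flt3-ITD cells (1.12 to 1.16), which turned with ribosomal protein genes left out of the total. Npm3, a nucleoplasmin-family chaperone, had 212 CPM in NPMc+, 195 CPM in Flt3-ITD and 257 CPM in NPMc+/Flt3-ITD cells, against 174 CPM in Mx cells. All 3 mutants were above Mx, by 1.22-fold in NPMc+ (1.17 to 1.27), 1.12-fold in Flt3-ITD (1.07 to 1.17) and 1.47-fold in NPMc+/Flt3-ITD cells (1.42 to 1.53). Its processed copy Npm3-ps1, which could share reads with it, was at 13.4, 15.4 and 10.4 CPM in NPMc+, Flt3-ITD and NPMc+/Flt3-ITD cells, against 6.06 CPM in Mx cells. Nolc1, which links snoRNPs to the nucleolus, had 89.7 CPM in NPMc+, 73.0 CPM in Flt3-ITD and 101 CPM in NPMc+/Flt3-ITD cells, against 77.9 CPM in Mx cells. Npm1 itself, the gene that the NPMc+ allele alters and which is no member, was 1.12-fold, 1.06-fold and 1.34-fold the Mx level in NPMc+, Flt3-ITD and NPMc+/Flt3-ITD cells, and counts per gene do not separate its alleles.

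Among the groups of members, the 5 polymerase I genes had the lowest summed ratio to Mx in Flt3-ITD cells. Ubtf, the factor that opens ribosomal DNA for transcription, was measured at 89.6 CPM in NPMc+, 74.6 CPM in Flt3-ITD and 111 CPM in NPMc+/Flt3-ITD cells, against 90.9 CPM in Mx cells. The subunit Polr1b had 23.5, 15.9 and 25.8 CPM in NPMc+, Flt3-ITD and NPMc+/Flt3-ITD cells, against 20.7 CPM in Mx cells, and Polr1c had 78.9 CPM in NPMc+, 70.2 CPM in Flt3-ITD and 92.2 CPM in NPMc+/Flt3-ITD cells, against 79.9 CPM in Mx cells. The largest subunit, Polr1a, was at 19.1 CPM in NPMc+, 14.6 CPM in Flt3-ITD and 18.6 CPM in NPMc+/Flt3-ITD cells, against 19.1 CPM in Mx cells. Flt3-ITD was the lowest library for each of these 4 genes. Ddx21, a helicase that couples polymerase I transcription to processing, had 99.96 CPM in NPMc+, 82.7 CPM in Flt3-ITD and 71.8 CPM in NPMc+/Flt3-ITD cells, against 103 CPM in Mx cells, so its lowest library was NPMc+/Flt3-ITD.

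As a sum the 5 polymerase I genes were 0.824-fold the Mx level in Flt3-ITD cells (0.795 to 0.853), and they stayed below Mx under TMM scaling at 0.910-fold. In NPMc+ cells the sum was 0.992-fold (0.960 to 1.03) and in NPMc+/Flt3-ITD cells 1.02-fold (0.986 to 1.05), both within counting error of Mx. Both depended on the scaling. The NPMc+ sum was 1.10-fold under TMM scaling. The NPMc+/Flt3-ITD sum was 0.999-fold under TMM scaling and 0.888-fold with mitochondrial and ribosomal protein genes left out of the total. Between both genotypes with Flt3-ITD, Polr1b was 1.62-fold higher in NPMc+/Flt3-ITD than in Flt3-ITD cells (1.42 to 1.85) and Ubtf 1.48-fold (1.40 to 1.58). The 12 other polymerase I factors summed to 0.935-fold the Mx level in Flt3-ITD cells, which turned to 1.03-fold under TMM scaling. Among 10 of them at 20 CPM or more, Polr1e was at least 1.5-fold above Mx in NPMc+ (1.66-fold, 1.48 to 1.86) and in NPMc+/Flt3-ITD cells (1.53-fold, 1.37 to 1.72). Ttf1, the transcription terminator of ribosomal DNA, was 0.593-fold the Mx level in NPMc+ (0.525 to 0.669) and 0.512-fold in Flt3-ITD cells (0.448 to 0.584), and Taf1d, a subunit of the promoter selectivity factor, was 0.537-fold in NPMc+/Flt3-ITD cells (0.512 to 0.564).

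The small subunit factors summed to 1.17-fold the Mx level in NPMc+ (1.14 to 1.20) and in NPMc+/Flt3-ITD cells (1.14 to 1.21), and to 0.969-fold in Flt3-ITD cells (0.939 to 0.999), which turned under TMM scaling. The 2 genes called in NPMc+ cells, Bysl and Ltv1, act after the early processing steps. Bysl (bystin, chr17:47599331-47611492) was measured at 27.3 CPM in NPMc+, 15.3 CPM in Flt3-ITD and 21.7 CPM in NPMc+/Flt3-ITD cells, against 14.8 CPM in Mx cells, and was 1.85-fold above Mx in NPMc+ cells (1.62 to 2.13). It lies opposite to Ccnd3, which was at 173 CPM in NPMc+ and 163 CPM in Mx cells. Ltv1, an export factor of the small subunit precursor, had 69.3 CPM in NPMc+, 48.6 CPM in Flt3-ITD and 54.4 CPM in NPMc+/Flt3-ITD cells, against 43.7 CPM in Mx cells, and was 1.58-fold above Mx in NPMc+ cells (1.46 to 1.72). For both genes NPMc+ was the highest library and NPMc+/Flt3-ITD came next.

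Of the processome factors that act early on the precursor, Rrp9 was 1.46-fold above Mx in NPMc+ cells (1.33 to 1.60), whereas Nop14 was 0.987-fold (0.911 to 1.07) and Wdr43 0.914-fold (0.861 to 0.971), and both of these directions turned under TMM scaling. The large processome proteins were scarce, with Utp20 at 7.86, 6.41 and 8.23 CPM in NPMc+, Flt3-ITD and NPMc+/Flt3-ITD cells, against 10.4 CPM in Mx cells, and Heatr1 at 9.85 CPM in NPMc+, 8.46 CPM in Flt3-ITD and 10.9 CPM in NPMc+/Flt3-ITD cells, against 12.3 CPM in Mx cells. Mx was the highest library for both. Tsr1 was lowest in Flt3-ITD cells at 0.739-fold the Mx level (0.654 to 0.835). Nob1, the nuclease that trims the small subunit RNA, was highest in NPMc+/Flt3-ITD cells at 1.40-fold (1.32 to 1.48).

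The large subunit factors summed to 1.14-fold the Mx level in NPMc+ (1.12 to 1.16) and 1.22-fold in NPMc+/Flt3-ITD cells (1.20 to 1.24). Flt3-ITD cells were at 0.961-fold (0.943 to 0.978), a direction that turned under TMM scaling. Bop1, Pes1 and Wdr12 form the PeBoW complex, but they did not move alike. Bop1 (chr15:76452989-76477277) was measured at 57.3 CPM in NPMc+, 40.3 CPM in Flt3-ITD and 59.8 CPM in NPMc+/Flt3-ITD cells, against 33.6 CPM in Mx cells. Pes1 had 74.3 CPM in NPMc+, 62.1 CPM in Flt3-ITD and 83.1 CPM in NPMc+/Flt3-ITD cells, against 63.9 CPM in Mx cells. Wdr12 had 93.3 CPM in NPMc+, 84.9 CPM in Flt3-ITD and 134 CPM in NPMc+/Flt3-ITD cells, against 97.9 CPM in Mx cells.

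Relative to Mx, Bop1 was 1.71-fold higher in NPMc+ (1.56 to 1.87) and 1.78-fold in NPMc+/Flt3-ITD cells (1.63 to 1.95). Wdr12 was 0.953-fold the Mx level in NPMc+ cells (0.898 to 1.01), within counting error, and 1.37-fold in NPMc+/Flt3-ITD cells (1.3 to 1.45). The interval for Pes1 lay above 1 in both, at 1.16-fold in NPMc+ (1.08 to 1.25) and 1.3-fold in NPMc+/Flt3-ITD cells (1.21 to 1.39). Nop16 was 1.44-fold above Mx in NPMc+ (1.34 to 1.55) and 1.59-fold in NPMc+/Flt3-ITD cells (1.48 to 1.71), and Nop2, an rRNA methyltransferase, was 1.45-fold in NPMc+ (1.34 to 1.58) and 1.23-fold in NPMc+/Flt3-ITD cells (1.13 to 1.34). Mrto4, which holds the place of a stalk protein in the precursor, was 1.38-fold above Mx in NPMc+ cells (1.28 to 1.47).

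The helicase Ddx18 (chr1:121553835-121567989) was, with Nop10, the second member at least 1.5-fold below Mx in NPMc+/Flt3-ITD cells. It was measured at 90.3 CPM in NPMc+, 83.3 CPM in Flt3-ITD and 57.4 CPM in NPMc+/Flt3-ITD cells, against 89.3 CPM in Mx cells. The NPMc+/Flt3-ITD library was at 0.642-fold the Mx level (0.600 to 0.687), and the other 3 libraries lay between 83.3 and 90.3 CPM. Gnl3 (nucleostemin, a nucleolar GTPase of proliferating stem cells) had 143, 104 and 130 CPM in NPMc+, Flt3-ITD and NPMc+/Flt3-ITD cells, against 144 CPM in Mx cells. Its lowest library was Flt3-ITD at 0.725-fold (0.686 to 0.765), while its relative Gnl2 was at 1.05-fold there (0.975 to 1.13). Gnl3 overlaps Pbrm1 on the opposite strand, which was at 79.0 CPM in Flt3-ITD and 94.6 CPM in Mx cells.

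NPMc+/Flt3-ITD cells were also set against each single mutant, and both comparisons share the NPMc+/Flt3-ITD library. Against NPMc+ cells, 0 of 36 members were at least 1.5-fold higher, where 14.0% of all genes were, and 2 were as far lower (5.56%, Nop10 and Ddx18), where 7.61% of all genes were. With 1 library per genotype no tool gave a p for this count of 0. Against Flt3-ITD cells, 3 of 36 were higher (8.33%, Polr1b, Wdr12 and Srm) and 1 lower (2.78%, Nop10), against 13.7% and 7.35% of all genes. None of the 3 higher calls held under TMM scaling, where Polr1b was 1.44-fold, Wdr12 1.40-fold and Srm 1.36-fold, or with mitochondrial and ribosomal protein genes left out of the total, where they were 1.45-fold, 1.42-fold and 1.37-fold. The count was 8 among male cells, 9 among female cells and 9 without cycling cells. Polr1b reached 20 CPM in NPMc+/Flt3-ITD cells alone of these 2 libraries. Against Flt3-ITD cells the interval lay above 1 for 31 and below 1 for 4 of the 36 members, and against NPMc+ cells for 18 and 11. Without regard to the interval, 31 of 36 members were above 1 against Flt3-ITD cells, where 78.6% of all genes were. Against NPMc+ cells 24 of 36 were, where 73.4% of all genes were.

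If the log2 ratios of both single mutants to Mx are added, the sum over all members in NPMc+/Flt3-ITD cells lay 0.06 above that total. That direction held in CPM only. Under TMM scaling the sum was 1.26-fold the Mx level in NPMc+, 1.09-fold in Flt3-ITD and 1.16-fold in NPMc+/Flt3-ITD cells, below the added total. With mitochondrial and ribosomal protein genes left out it was 1.12-fold, 0.959-fold and 1.03-fold, again below. Both scalings lowered every departure alike. In CPM the median log2 ratios of all genes were -0.01, -0.06 and 0.21, the last also above the added total. Single members departed more in CPM. Nop56 lay 0.62 above its own total, Wdr12 0.73 above and Utp20 0.76 above. The departure was -0.95 for Odc1, -0.92 for Nop10 and -0.55 for Ddx18. These are descriptions of 4 libraries with no replicate spread.

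The low level of Nop10 in NPMc+/Flt3-ITD cells stood beside low levels of ribosomal protein and snoRNA host genes. Ribosomal protein genes summed to 0.677-fold the Mx level there, against 0.949-fold in NPMc+ and 0.937-fold in Flt3-ITD cells, and both of the last directions turned under TMM scaling. Of 86 ribosomal protein genes at 20 CPM or more, 49 were at least 1.5-fold below Mx in NPMc+/Flt3-ITD cells and 1 above, the L6-like gene Rpl6l at 1.90-fold (1.79 to 2.01). Over all genes 9.84% were as far below and 14.1% as far above. Rps28 was 0.153-fold the Mx level, Rpl36al 0.145-fold and Rpl39 0.222-fold, whereas Rpl4 was 1.28-fold. Ribosomal protein genes have many near-identical copies between which counting can split reads.

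The snoRNA host genes, whose introns carry the guide RNAs of the snoRNPs, summed to 0.563-fold the Mx level in NPMc+/Flt3-ITD cells (0.557 to 0.570). There 7 of 14 were at least 1.5-fold lower and 0 higher, where 9.84% and 14.1% of all genes were. Snhg6 was 0.241-fold (0.219 to 0.264) and Snhg9 0.244-fold (0.211 to 0.281). In NPMc+ cells the list was at 0.888-fold, with 3 of 14 lower, among them Snhg4 at 0.431-fold (0.397 to 0.467) and Snhg3 at 0.484-fold (0.453 to 0.516). Of all genes, 8.91% were as far below Mx in NPMc+ cells. In Flt3-ITD cells 0 of 14 passed a fold of 1.5 either way, where 4.41% of all genes were above and 6.40% below. The sum was 0.984-fold, which turned under TMM scaling, and Snhg1 was highest at 1.44-fold (1.38 to 1.51). Among ribosomal protein genes with a window at 20 CPM or more, 20 of 31 with the pyrimidine run and 17 of 31 without it were at least 1.5-fold below Mx in NPMc+/Flt3-ITD cells, with median log2 ratios of -1.10 and -0.64. Over all genes with a window at that level, 105 of 993 with the run and 356 of 4420 without it were as far below. The median log2 ratios over all genes were 0.20 and 0.22.

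**Figure D3:**
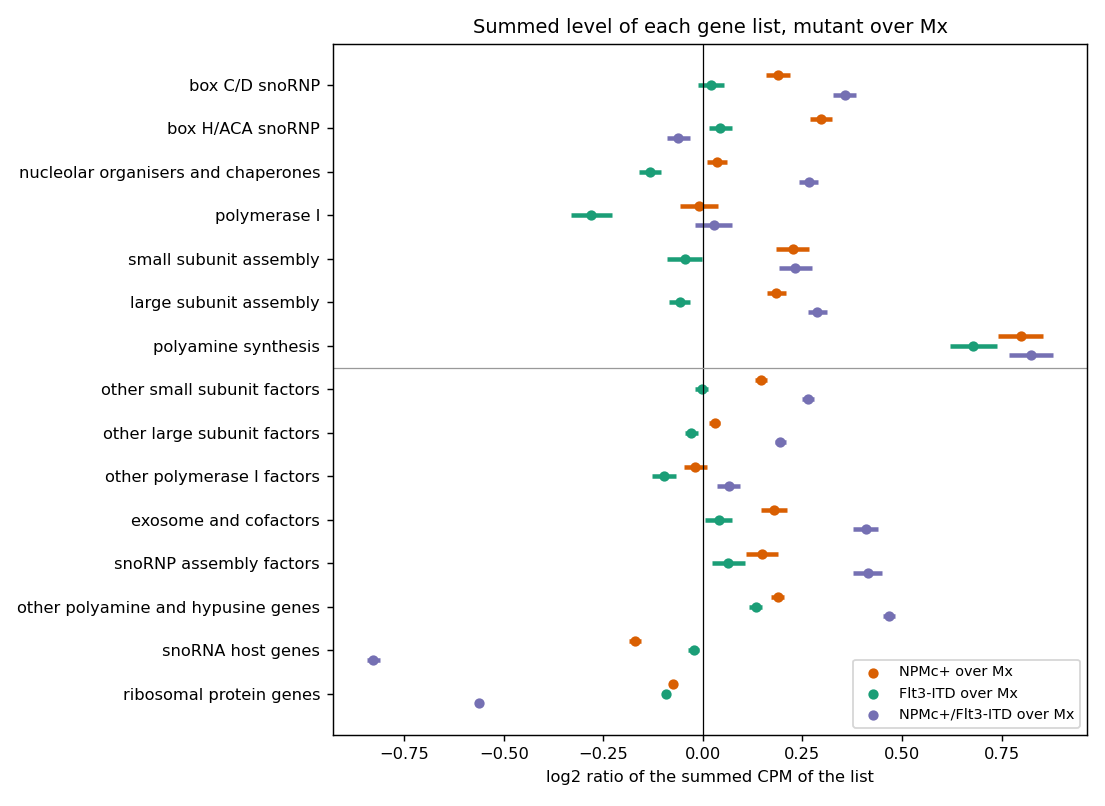
The log2 ratio to Mx of the summed CPM (x axis) of each group of members (above the line) and of other lists of the pathway (below it) in NPMc+, Flt3-ITD and NPMc+/Flt3-ITD cells (colours), with 95% counting intervals as bars. The polyamine pair lies at the right in all 3 genotypes, polymerase I is at the left in Flt3-ITD at 0.824-fold, and snoRNA host genes (0.563-fold) and ribosomal protein genes (0.677-fold) are far left in NPMc+/Flt3-ITD cells.

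Other genes of the pathway numbered 156, with the snoRNA hosts and the polyamine genes included. In NPMc+ cells 3 of 136 at 20 CPM or more were at least 1.5-fold above Mx and 4 below, where 4.37% and 8.91% of all genes were. In Flt3-ITD cells 1 of 135 was above and 1 below, where 4.41% and 6.40% of all genes were. In NPMc+/Flt3-ITD cells 9 of 138 were above and 10 below, 7 of the 10 being snoRNA host genes, where 14.1% and 9.84% of all genes were. Small subunit factors held 2 of the 3 higher genes of NPMc+ cells, Pno1 at 1.57-fold (1.43 to 1.73) and Noc4l at 1.57-fold (1.42 to 1.74). The same 2 genes were at 1.64-fold (1.49 to 1.80) and 1.67-fold (1.52 to 1.85) in NPMc+/Flt3-ITD cells. Of 42 other large subunit factors, 0 passed a fold of 1.5 in NPMc+ cells, and in Flt3-ITD cells Zfp622, a release factor of the late large subunit, was 1.74-fold above Mx (1.64 to 1.86). In NPMc+/Flt3-ITD cells Rpf2 was 1.62-fold above Mx (1.5 to 1.76), and Wdr74 and Nsa2 were 0.540-fold (0.483 to 0.604) and 0.590-fold (0.565 to 0.616). Exosome and snoRNP assembly factors each had 1 gene past 1.5-fold, in NPMc+/Flt3-ITD cells alone: Exosc3 at 1.53-fold (1.43 to 1.63) and Znhit3 at 1.57-fold (1.41 to 1.74).

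The MYC genes are known regulators of the pathway. Myc was measured at 127 CPM in NPMc+, 111 CPM in Flt3-ITD and 129 CPM in NPMc+/Flt3-ITD cells, against 122 CPM in Mx cells. Mycn had 126 CPM in NPMc+, 48.0 CPM in Flt3-ITD and 290.1 CPM in NPMc+/Flt3-ITD cells, against 120.5 CPM in Mx cells. Mycn was thus 0.399-fold the Mx level in Flt3-ITD (0.371 to 0.429) and 2.41-fold in NPMc+/Flt3-ITD cells (2.30 to 2.52), while NPMc+ cells were at 1.05-fold (0.996 to 1.11), within counting error. Both genes had the library order of the members' sum, highest in NPMc+/Flt3-ITD and lowest in Flt3-ITD cells, an order that changed under TMM scaling for the sum and for Myc. In both genotypes with Flt3-ITD the Mycn ratios to Mx were farther from 1 than those of the sum.

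Totals per cell were taken after thinning each cell to 3000 UMIs, which left out 125, 218, 330 and 208 shallower cells in NPMc+, Flt3-ITD, NPMc+/Flt3-ITD and Mx. A cell then held a mean of 15.1 member UMIs in NPMc+ (14.97 to 15.3), 13.0 in Flt3-ITD (12.9 to 13.2) and 15.1 in NPMc+/Flt3-ITD cells (14.9 to 15.2), against 13.4 in Mx cells (13.3 to 13.6). The middle of the distribution, from the 10th to the 90th percentile, ran from 8 to 23 in NPMc+, 7 to 20 in Flt3-ITD and 8 to 24 in NPMc+/Flt3-ITD cells, against 7 to 20 in Mx cells. More than 20 member UMIs were found in 16.7% of NPMc+ cells (15.1 to 18.3), 9.56% of Flt3-ITD cells (8.36 to 10.9) and 19.3% of NPMc+/Flt3-ITD cells (17.9 to 20.7), against 9.52% of Mx cells (8.35 to 10.8). The distributions overlapped for most cells. The variance over the mean was 2.05, 2.30 and 2.67 in NPMc+, Flt3-ITD and NPMc+/Flt3-ITD cells, against 2.04 in Mx cells, so totals were most spread in NPMc+/Flt3-ITD cells.

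In Flt3-ITD and NPMc+/Flt3-ITD cells, member UMIs after thinning rose with each quartile of UMIs before it. In NPMc+ and Mx cells the second quartile lay slightly below the lowest, and the rise began above it. From the lowest to the highest quartile of UMIs, the mean was 13.8, 13.7, 15.6 and 17.5 in NPMc+ cells and 11.3, 11.6, 13.4 and 15.7 in Flt3-ITD cells. It was 12.3, 13.5, 15.2 and 19.2 in NPMc+/Flt3-ITD cells, against 12.5, 12, 13.3 and 15.9 in Mx cells. The top quartile exceeded the lowest in every library, by the widest margin in NPMc+/Flt3-ITD cells. There, 38 of 40 members were higher in the top than in the lowest quartile, a count with no share of all genes beside it. Beyond counting error 28 were higher, with Srm at 2.87-fold (2.44 to 3.40) and Nolc1 at 2.44-fold (1.97 to 3.03). Rrp1 alone was lower beyond counting error, at 0.866-fold (0.771 to 0.973).

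**Figure D4:**
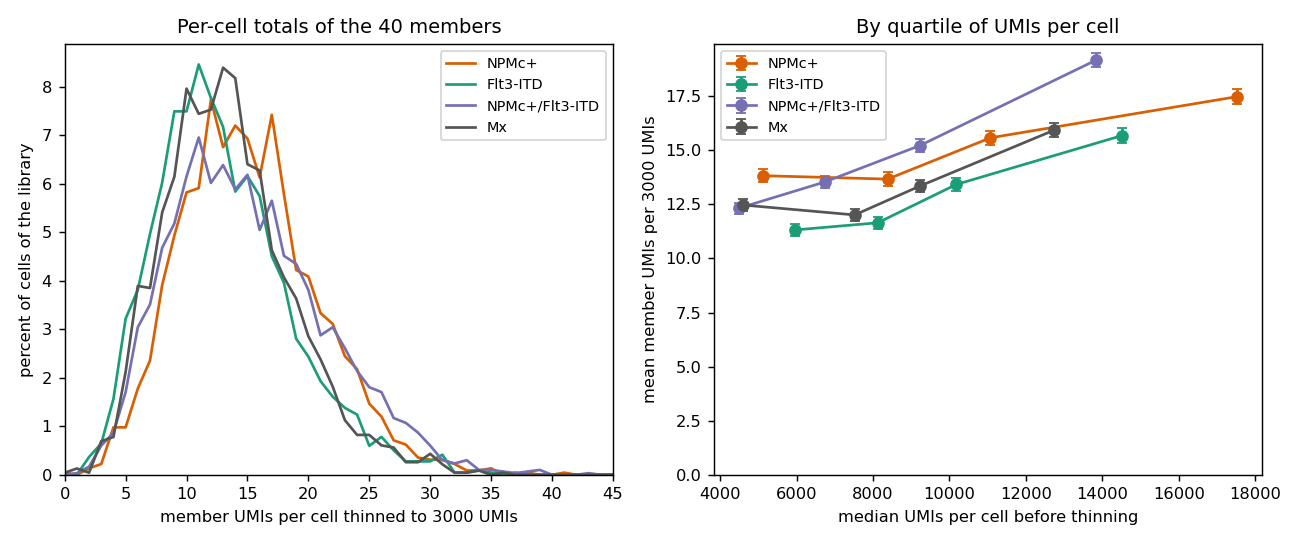
Left, the percentage of cells of each library (y axis) by member UMIs per cell after thinning to 3000 UMIs (x axis), and right, the mean member UMIs per cell (y axis, from 0, with 95% counting intervals) by the median UMIs of each quartile of cells before thinning (x axis), for NPMc+, Flt3-ITD, NPMc+/Flt3-ITD and Mx cells. The curves of NPMc+ and NPMc+/Flt3-ITD cells lie to the right of Mx, and the mean of the top quartile is highest in NPMc+/Flt3-ITD cells at 19.2.

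Cells with UMIs of a mitotic core list, which was added after the data were seen, held more member UMIs. Cells with at least 2 UMIs of a mitotic core of 13 genes made up 15.9% of NPMc+ cells, 15.03% of Flt3-ITD cells and 15.7% of NPMc+/Flt3-ITD cells, against 8.78% of Mx cells. They held a mean of 15.9, 13.7, 17.4 and 14.8 member UMIs in NPMc+, Flt3-ITD, NPMc+/Flt3-ITD and Mx, and cells with none of these UMIs held 14.8, 12.7, 14.4 and 13.1. By this list the difference was widest in NPMc+/Flt3-ITD cells. The mitotic core cells also had more UMIs before thinning, with a median of 11168 against 7379 in NPMc+/Flt3-ITD. The planned lists of the G2/M and G1/S phases gave another order. Cells with at least 2 G2/M UMIs held a mean of 15.6, 13.5, 14.8 and 14.2 member UMIs in NPMc+, Flt3-ITD, NPMc+/Flt3-ITD and Mx. Cells with no UMI of either list held 14.6, 11.3, 13.9 and 11.7. That difference was narrowest in NPMc+/Flt3-ITD, where 25 cells had neither. There the G2/M cells lay below the other cells with at least 2 G1/S UMIs (15.6). Without the mitotic core cells the members' sum was 1.14-fold the Mx level in NPMc+ and 1.16-fold in NPMc+/Flt3-ITD cells.

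In the NPMc+/Flt3-ITD library, cells with several T or NK cell UMIs held fewer member UMIs. Cells with at least 2 UMIs of a T or NK cell list of 8 genes numbered 769 (25.7%), against 9 in NPMc+, 10 in Flt3-ITD and 8 in Mx cells. They held a mean of 12.5 member UMIs (12.2 to 12.7), against 15.9 (15.7 to 16.1) in the 1644 cells with none of these UMIs, and their median depth before thinning was 5707 UMIs, against 8394. The low mean came from cells with more than 2 of these UMIs, since the 141 cells with exactly 2 held 16.5 member UMIs (15.8 to 17.1) and the 578 cells with exactly 1 held 16.1 (15.8 to 16.4), neither below the cells with none. Of the 40 members 35 were lower in the cells with at least 2 of these UMIs than in those with none. No share of all genes stands beside this count. Beyond counting error 25 were lower, with Odc1 at 0.513-fold (0.423 to 0.619) and Srm at 0.526-fold (0.451 to 0.611). Rrp1 at 1.24-fold (1.13 to 1.36) and Npm3 at 1.21-fold (1.10 to 1.34) were the 2 that were higher beyond it. Without these cells the members' sum was 1.23-fold the Mx level in NPMc+/Flt3-ITD cells.

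Cells with a Myc UMI held a mean of 16.2 member UMIs in NPMc+/Flt3-ITD (15.9 to 16.5) against 14.6 in cells with none (14.5 to 14.8), and 14.1 against 13.2 in Mx cells. In NPMc+ cells the means were 15.2 and 15.1, and in Flt3-ITD cells 13.0 and 13.0. For Mycn the means with and without a UMI were 16.0 and 14.3 in NPMc+/Flt3-ITD cells and 14.8 and 15.3 in NPMc+ cells. They were 13.4 and 13.0 in Flt3-ITD cells, against 13.2 and 13.5 in Mx cells. Only in the NPMc+/Flt3-ITD library were both differences upward by more than 1 member UMI, and there the cells with a Mycn UMI also had the higher median depth, 8798 against 7095 UMIs.

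The sexes were read apart because their shares differed between libraries. All 5 members called higher in NPMc+ cells, and all 4 called higher and both called lower in NPMc+/Flt3-ITD cells, kept their direction against Mx among male and among female cells. These members were called on the same cells pooled, mostly male among the sexed NPMc+/Flt3-ITD cells, so this was in part fixed by the choice. Among male cells the members' sum was 1.17-fold the Mx level in NPMc+, 0.946-fold in Flt3-ITD and 1.19-fold in NPMc+/Flt3-ITD cells. Among female cells it was 1.08-fold in NPMc+, 1.04-fold in Flt3-ITD and 1.32-fold in NPMc+/Flt3-ITD cells, so the direction in Flt3-ITD cells turned. The female NPMc+/Flt3-ITD value rests on 179 cells. The part of sex, of dividing cells and of T-lineage cells in the differences between genotypes was not tested beyond these values.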

How the data were processed

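The deposited values were UMI counts per gene and cell barcode, made by the authors; the submitters' processing notes name STARsolo, STAR 2.7.0c and the mm10 genome. The annotation and the use of strand are not given in the sources used here. Of 11407 barcodes 10608 were kept, each with 1000 UMIs or more, 500 genes or more and no more than 10% of UMIs from mitochondrial genes. No doublet caller was run; leaving out the 2% of cells with most UMIs was an alternative. Libraries shared 160 barcodes in all pairs, 52 among kept cells. Counts were summed per library and divided by all UMIs (CPM). A ratio carries the exact 95% binomial interval of the 2 UMI counts, a level the exact Poisson interval and a share the exact Clopper-Pearson interval, all covering counting error only. Genes were called at a fold of 1.5 where either library had at least 20 CPM. For totals per cell, UMIs were drawn without replacement to 3000 per cell with a fixed seed, and shallower cells were left out. Cell classes (mitotic core, G2/M, G1/S, T or NK list) were set on the thinned counts, at 2 or more UMIs. Cells called cycling were those with at least 2 UMIs of the G2/M or the G1/S list. This was a wide cut, and leaving them out, with cells under 3000 UMIs, left 523 of 2519 Mx cells. No test across samples was made, because each genotype had 1 library; the ratio and thinning code was tested on simulated data.

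The members, the other lists and the comparisons were chosen with earlier results of these data known. Values in every library were given for a fixed subset of members and, in each comparison, for the 3 highest and 3 lowest ratios, and other genes of the pathway were named from the 2 highest and 2 lowest ratios of their list in each mutant against Mx. Of 158 other pathway genes, 156 were found in the files. Gene positions are those of GENCODE release M 21 on GRCm38, and promoter windows those of RefSeq on GRCm38.p6. Scaling factors came from edgeR 4.0.16 in R 4.3.3 (TMM), and all other values from Python 3.11.15 with numpy 2.4.6, scipy 1.17.1 and pandas 2.3.3.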

Additional observations from a re-analysis of the deposited data

Results flagged for a closer look

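In 6 members the NPMc+ allele went with opposite directions in the cells with and without Flt3-ITD, each beyond counting error, and the difference was not tested because there was 1 library per genotype. Nop56 was 1.43-fold the Flt3-ITD level in NPMc+/Flt3-ITD cells and 0.930-fold the Mx level in NPMc+ cells. Ncl was 1.31-fold the Flt3-ITD level in NPMc+/Flt3-ITD cells and 0.972-fold the Mx level in NPMc+ cells. Under TMM scaling both of these ratios of NPMc+ to Mx turned above 1. Nop10 was 0.580-fold the Flt3-ITD level in NPMc+/Flt3-ITD cells and 1.10-fold the Mx level in NPMc+ cells, and Odc1 0.762-fold and 1.48-fold in these 2 contrasts. Utp20 was at 1.28-fold in NPMc+/Flt3-ITD against Flt3-ITD and 0.758-fold in NPMc+ against Mx, and Heatr1 at 1.28-fold and 0.803-fold in these 2 contrasts, both genes with under 20 CPM in every library.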

How the results depend on the processing

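Of the values recomputed under another setting, 55 moved beyond their counting interval or, for counts of members, by more than 1.5 times, 4 turned direction and 89 did neither. In NPMc+ against Mx the summed ratio was 1.14, and was 1.26 with TMM scaling, 1.12 with mitochondrial and ribosomal protein genes out of the total (the reduced total), 1.17 in male and 1.08 in female cells, 1.17 without cycling cells and 1.13 as a mean of per-cell CPM. In Flt3-ITD against Mx it was 0.986, and turned to 1.09 with TMM scaling and 1.04 in female cells; it was 0.959 with the reduced total, 0.946 in male cells, 0.955 without cycling cells and 0.960 without cells of other lineages. In NPMc+/Flt3-ITD against Mx it was 1.18, and was 1.16 with TMM scaling, 1.03 with the reduced total, 1.32 in female cells, 1.21 without cells of other lineages and 1.13 as a mean of per-cell CPM. In NPMc+/Flt3-ITD against NPMc+ it was 1.03, and turned to 0.917 with TMM scaling and 0.922 with the reduced total; it was 1.02 in male and 1.22 in female cells, 1.02 without cycling cells, 1.06 without cells of other lineages and 1.002 as a mean of per-cell CPM. In NPMc+/Flt3-ITD against Flt3-ITD it was 1.20, and was 1.06 with TMM scaling, 1.07 with the reduced total, 1.255 in male and 1.27 in female cells, 1.24 without cycling cells, 1.26 without cells of other lineages and 1.15 as a mean of per-cell CPM. Of the settings chosen after the data were seen, leaving out mitotic core cells gave 1.16 in NPMc+/Flt3-ITD against Mx, 1.02 against NPMc+ and 1.18 against Flt3-ITD, and leaving out cells with T or NK UMIs gave 1.23 against Mx, 1.07 against NPMc+ and 1.25 against Flt3-ITD.

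The count of members at least 1.5-fold higher in NPMc+ than in Mx was 5, and was 10 with TMM scaling, 9 in male cells, and 8 without cycling cells or without cells of other lineages. In NPMc+/Flt3-ITD against Mx it was 4, and was 2 with the reduced total or the mean of per-cell CPM, 16 in female cells, and 7 without cycling cells or without cells with T or NK UMIs. In NPMc+/Flt3-ITD against NPMc+ it was 0, and was 1 in male cells, 4 in female cells and 1 without cycling cells. In NPMc+/Flt3-ITD against Flt3-ITD it was 3, and was 0 with TMM scaling or the reduced total, 8 in male cells, 9 in female cells, 9 without cycling cells, 5 without cells of other lineages and 7 without cells with T or NK UMIs. In Flt3-ITD against Mx it was 1 under every setting run. The shares of all genes given above are those of the main setting, and none stands beside these counts under other settings. Member UMIs per 1000 UMIs were 5.05 in NPMc+, 5.02 in NPMc+/Flt3-ITD and 4.48 in Mx cells at 3000 UMIs, and were 4.98 in NPMc+ and 4.41 in Mx cells at 2000 and 5.24 in NPMc+/Flt3-ITD cells at 5000. The cause of these moves was not tested. The cycling list left 250 to 523 cells per library and the female NPMc+/Flt3-ITD group held 179, so their counts are imprecise. No paired analysis was possible because each genotype had 1 library. Animal, library and genotype cannot be told apart.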
